A study of Mus musculus with 8 samples.

Results

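The genes described here are 8 genes of germ cells and of the 2-cell embryo: Dppa3, Dazl, Ddx4, Mael, Stk31, Hormad1, Sycp3 and Zscan4c. They were chosen by symbol, with earlier results of these data known. Every probe of a 1-colour Agilent expression array whose gene name or accession gives that symbol was taken. This found 11 probes of 41174, for 8 genes of 27670. Dazl, Hormad1 and Zscan4c have a pair of probes each and the other 5 genes have 1 probe. The probes of Zscan4c carry the older name Gm397 in the files.

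Total RNA of 4 mouse cell populations was hybridised, with 1 array per population. PM2i-iPSC are induced pluripotent stem cells made from mouse embryonic fibroblasts (MEF) that received combinations containing purmorphamine, a small-molecule agonist of Smoothened, followed by 2i/LIF. OM2i-iPSC were made from MEF that received combinations containing an oxysterol, again followed by 2i/LIF, which is a medium with inhibitors of MEK and GSK3 and the cytokine LIF. The ES cells are embryonic stem cells of 129/Ola mice at the blastocyst stage, and MEF are the starting fibroblasts, labelled as embryonic with no strain given. The labels give no clone number, passage or culture time for any of them. Levels are log2 of the processed spot signal relative to the 75th percentile of the same array, so 0 is the 75th percentile. With 1 array per population no difference below was tested, no error between samples exists, and each value describes these arrays. The errors that can be given are the scanner's own error of a spot, with a median of 10.07% of the signal over the 34 member values well above background, and the spread between repeat spots on 1 array, with a log2 SD of 0.208 (0.294 for the difference of a pair of arrays).

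In the mouse, primordial germ cells arise from the epiblast and switch on a set of genes for RNA silencing, translation and meiosis that stay off in other tissues. Many of these genes have CpG-rich promoters that are held silent by DNA methylation and, in embryonic stem cells, by a variant Polycomb repressive complex whose subunits include E2f6, Max and Mga. Zscan4 genes belong to another programme, which is active in the 2-cell embryo and in a small, changing fraction of cultured embryonic stem cells.

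All 8 genes had a probe well above background in PM2i-iPSC, OM2i-iPSC and ES, and 4 of 8 did in MEF. By probe, 9 of 11 were well above background in PM2i-iPSC, 10 in OM2i-iPSC, 11 in ES and 4 in MEF. No member spot was saturated, and no member probe shares a run of 20 bases with another probe of the array. Spots well above background made up 63.4% to 66.9% on the PM2i-iPSC, OM2i-iPSC and ES arrays and 72.8% on the MEF array. Slide 1 carried ES and PM2i-iPSC, slide 2 OM2i-iPSC, and slide 3 MEF, with a separate scan and an older software version for the last. Slide and population can therefore not be told apart in comparisons with MEF or OM2i-iPSC. The 8 pluripotency markers on the array (among them Pou5f1, Nanog and Esrrb) summed to 111, 97.5 and 126 times the 75th percentile in PM2i-iPSC, OM2i-iPSC and ES, against 1.38 in MEF. Nanog, Sall4 and Dppa5a were saturated in PM2i-iPSC, OM2i-iPSC and ES, so the order of the sums among these arrays is not a measured one. The 10 fibroblast markers summed to 4.64, 5.34 and 8.65 in PM2i-iPSC, OM2i-iPSC and ES, against 166 in MEF. Postn, a fibroblast matrix protein, was not well above background outside MEF.

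**Figure D1:**
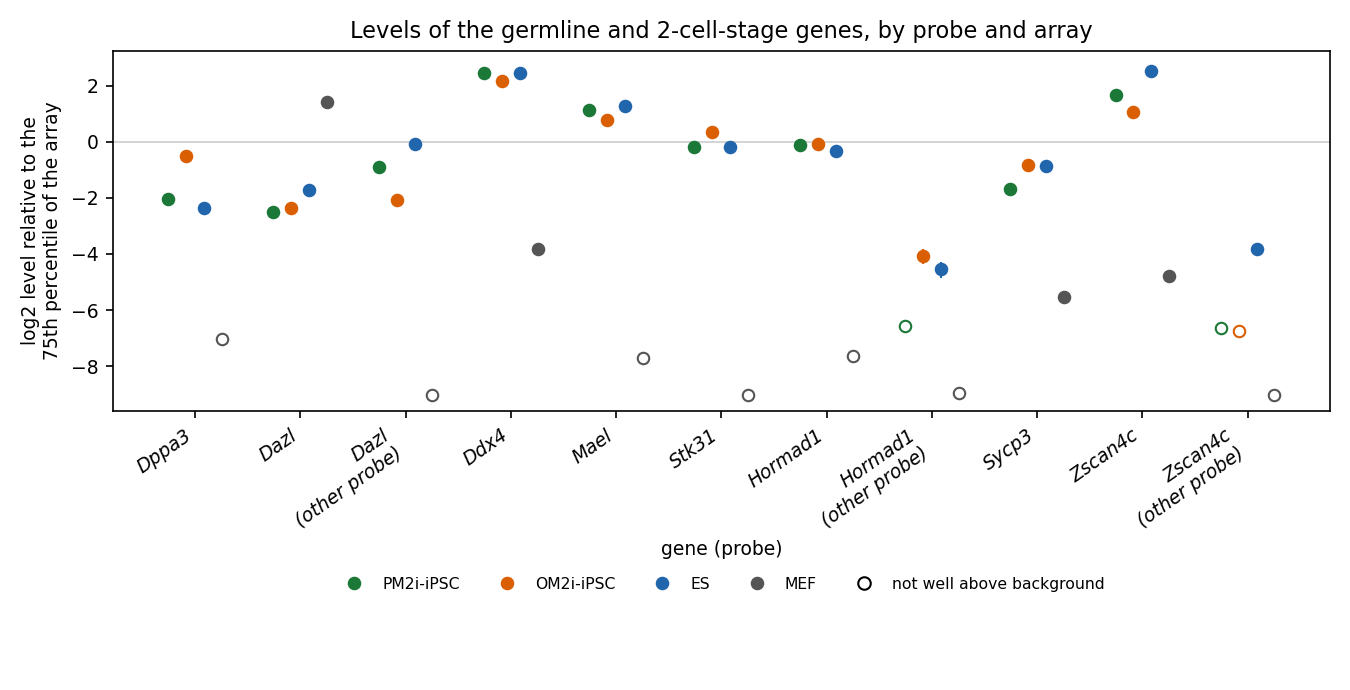
Level of each probe of the 8 genes on each array, as log2 relative to the array's 75th percentile. Filled points are well above background with the scanner's spot error as a bar (mostly smaller than the point), and open points are not well above background. The PM2i-iPSC, OM2i-iPSC and ES points lie close together for Ddx4, Mael, Stk31 and the brighter Hormad1 probe and far above MEF, and the 2 Dazl probes place MEF at opposite ends.

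In each of PM2i-iPSC, OM2i-iPSC and ES, 7 of the 8 genes passed 2-fold above MEF, and 1, Dazl, passed 2-fold below MEF on its brighter probe. Over all genes that entered the comparison, 34.0% passed 2-fold above MEF in PM2i-iPSC, 36.7% in OM2i-iPSC and 33.8% in ES, while 23.6%, 23.3% and 22.4% passed it below. When arrays were scaled to their median, these background shares became 25.8%, 27.3% and 25.8% higher and 34.4%, 35.7% and 32.7% lower, with the same 7 and 1 members called. The median log2 difference from MEF over the 8 genes was 6.38 in PM2i-iPSC, 6.18 in OM2i-iPSC and 6.40 in ES, where all genes had medians of 0.26, 0.37 and 0.27. The 3 comparisons share the MEF array. A spot that was not well above background was replaced by the dimmest signal of its array that was (unless its own was higher), and such a fold is written "at least". In these bulk samples, a gene carried by few cells and a gene low in every cell cannot be told apart.

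The germ granule and piRNA genes stood far above MEF. Ddx4 (Vasa), the DEAD-box RNA helicase of germ granules, read 2.45 in PM2i-iPSC, 2.18 in OM2i-iPSC and 2.46 in ES, against -3.84 in MEF (probe A_51_P223569, chr13:109754306-109754365, minus strand, build mm7). The MEF spot was itself well above background, so the folds of 78.2 in PM2i-iPSC, 65.0 in OM2i-iPSC and 79.2 in ES are measured ones. Mael, a germ granule protein needed for transposon silencing in the male germline, read 1.12 in PM2i-iPSC, 0.78 in OM2i-iPSC and 1.26 in ES, against -7.72 in MEF (A_51_P494751, chr1:166172164-166172223, minus strand). Its MEF spot was not well above background, which gave folds of at least 251 in PM2i-iPSC, 198 in OM2i-iPSC and 277 in ES. Stk31, a Tudor-domain kinase-like protein of male germ cells, read -0.19 in PM2i-iPSC, 0.36 in OM2i-iPSC and -0.20 in ES, against -9.03 in MEF (A_52_P638794, chr6:49407352-49407411, plus strand). It was at least 101-fold higher in PM2i-iPSC, 148-fold in OM2i-iPSC and 100.2-fold in ES, with the MEF spot again within background. For these 3 genes the PM2i-iPSC, OM2i-iPSC and ES values lay within 0.6 of each other on the log2 scale and more than 6 away from MEF.

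The meiotic genes were also far above MEF. Hormad1, a protein of the meiotic chromosome axis, read -0.12 in PM2i-iPSC, -0.09 in OM2i-iPSC and -0.35 in ES, against -7.64 in MEF, on its brighter probe (A_51_P497875, chr3:95454122-95454181, plus strand). That is at least 106-fold, 108-fold and 90.7-fold higher in PM2i-iPSC, OM2i-iPSC and ES, and these 3 levels differed by less than the spread between spots. The other Hormad1 probe (A_51_P497870, chr3:95459143-95459522) was much dimmer, at -4.08 in OM2i-iPSC and -4.53 in ES, and was not well above background in PM2i-iPSC or MEF. It gave at least 6.84-fold in OM2i-iPSC and at least 4.98-fold in ES over MEF, and no fold for PM2i-iPSC.

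Sycp3, a component of the lateral elements of the synaptonemal complex, read -1.69 in PM2i-iPSC, -0.83 in OM2i-iPSC and -0.87 in ES, against -5.54 in MEF, where it was still well above background. The folds over MEF were 14.5, 26.2 and 25.5. PM2i-iPSC was the lowest of the 3, by more than the spread between spots, and OM2i-iPSC and ES did not differ beyond it. The Sycp3 probe is shown because its 60 bases lie across 3091 bases of the genome in the file (chr10:88027463-88030553, plus strand, mm7), so 3031 bases of that genome are skipped within it:
A_51_P274465: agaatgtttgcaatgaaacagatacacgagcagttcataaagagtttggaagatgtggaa

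Dppa3 (Stella), a maternal factor that shields the early embryo's maternal genome from demethylation and a marker of primordial germ cells, read -2.06 in PM2i-iPSC, -0.51 in OM2i-iPSC and -2.36 in ES, against -7.04 in MEF (A_51_P195044, chr6:122666937-122666996, plus strand). The MEF spot was not well above background, and the folds were at least 27.7 in PM2i-iPSC, 81.2 in OM2i-iPSC and 22.5 in ES. OM2i-iPSC stood above the other arrays. The gap between PM2i-iPSC and ES, at 0.30, was about the size of the spread between spots.

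Zscan4c, a zinc-finger and SCAN-domain protein of the 2-cell embryo that acts on telomeres, read 1.67 in PM2i-iPSC, 1.07 in OM2i-iPSC and 2.52 in ES, against -4.79 in MEF, on its brighter probe (A_52_P302671, chr7:9713271-9713330, plus strand). Its folds over MEF were 88.5, 58.0 and 158.9, and all 4 spots were well above background. The other probe, which lies upstream, was well above background in ES alone, at -3.84, which is at least 8.04-fold over MEF. The RefSeq table lists 9 Zscan4 entries on chromosome 7, 4 of them protein coding. Of Zscan4a to Zscan4f, which were looked up by name, Zscan4c is the only one with a probe here. Transcripts of its near-identical copies could add to these signals, and which copies the probes match was not analysed here. The dimmer probe is shown because it separates ES from the other arrays (chr7:9711998-9712057, plus strand, mm7):
A_52_P363843: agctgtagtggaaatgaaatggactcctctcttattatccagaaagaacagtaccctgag

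The 2 probes of Dazl, an RNA-binding protein that controls translation in germ cells, gave opposite answers. The brighter one read -2.50 in PM2i-iPSC, -2.36 in OM2i-iPSC and -1.71 in ES, against 1.41 in MEF, levels 15.03-fold, 13.7-fold and 8.73-fold below MEF. The other probe (A_52_P271166, chr17:48427556-48427615, minus strand) read -0.89 in PM2i-iPSC, -2.09 in OM2i-iPSC and -0.09 in ES, against -9.03 in MEF, with folds over MEF of at least 62.4, 27.2 and 108.6. The disagreement lies in MEF, where the processed signal was 5002 on the first probe and 3.60 on the second. Outside MEF both were well above background and both were highest in ES. The first probe is shown because the direction of Dazl against MEF turns on it. Its 60 bases span 147 bases of the genome in the file (chr17:48435590-48435736, minus strand, mm7), and the count of 1 gene lower than MEF rests on it alone:
A_51_P246060: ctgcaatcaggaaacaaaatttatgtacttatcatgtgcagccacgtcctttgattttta
With the other Dazl probe in its place, all 8 genes passed 2-fold above MEF in PM2i-iPSC, OM2i-iPSC and ES. Whether these probes lie in coding sequence or in untranslated regions was not analysed here.

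**Figure D2:**
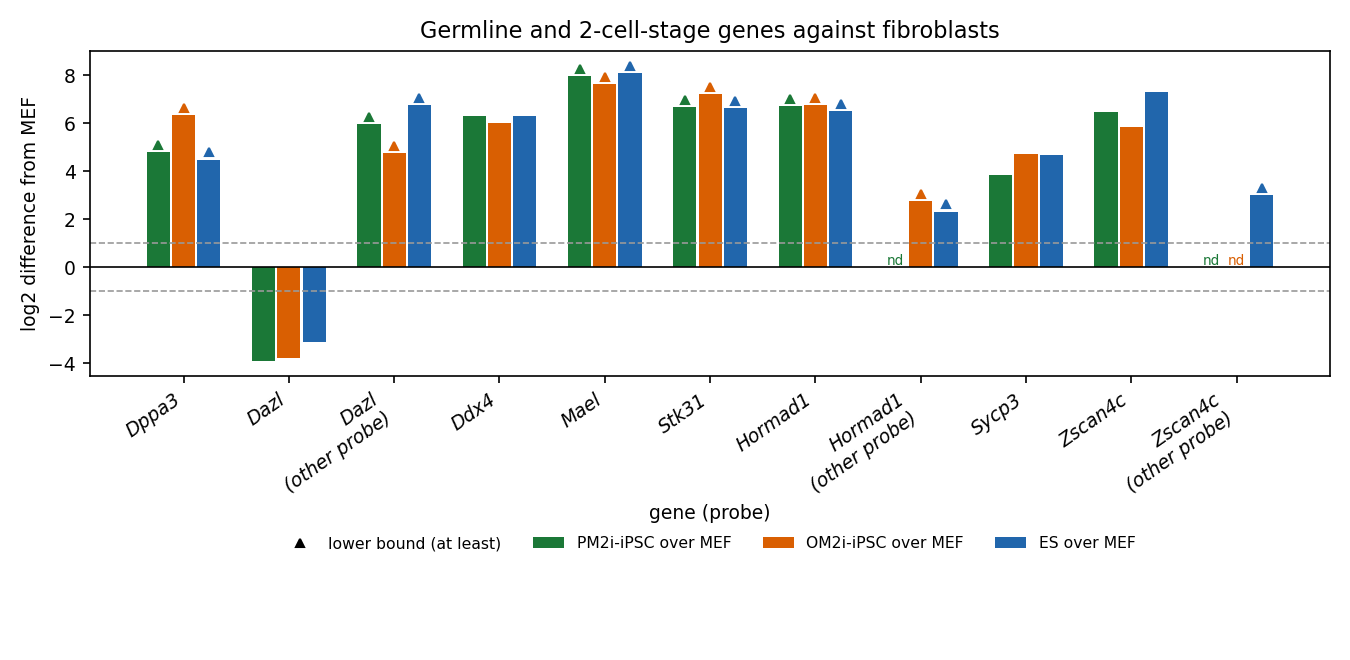
Log2 difference from MEF of each probe in PM2i-iPSC, OM2i-iPSC and ES. Triangles mark lower bounds, "nd" marks probes not well above background on either array, and dashed lines mark 2-fold. Every bar points up, between 2.32 and 8.11, except those of the brighter Dazl probe, which lie between -3.91 and -3.13.

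Placed on a scale where MEF is 0% and ES 100%, each of the 8 genes lay nearer to ES than to MEF in both preparations on its brighter or single probe. Ddx4 sat at 99.7% in PM2i-iPSC and 95.5% in OM2i-iPSC. Mael sat at 98.3% and 94.0%. Stk31 sat at 100% in PM2i-iPSC and 108% in OM2i-iPSC. Hormad1 sat at 103% and 104% on its brighter probe. Its other probe, not well above background in PM2i-iPSC, sat at 97.6% and 120%, or at 54.1% and 110% at its measured signals. For Mael, Stk31, Hormad1 and Dppa3 the MEF end is the detection floor of the array, not a measured level. Sycp3 sat at 82.5% in PM2i-iPSC and 101% in OM2i-iPSC, with Zscan4c at 88.4% and 80.1% and Dppa3 at 107% and 141%. Dazl sat at 125% and 121% on its brighter probe, on which ES is the low end, and at 88.2% and 70.4% on the other. The other Zscan4c probe, not well above background outside ES, sat at 45.8% in PM2i-iPSC and 43.8% in OM2i-iPSC at its measured signals, nearer to MEF, and at 75.2% and 74.7% with dim spots at the floor. Dppa3 in OM2i-iPSC lay furthest beyond ES. Zscan4c and Dazl were the genes below the ES level by more than the spread between spots in both preparations and on both of their probes.

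Against ES directly, none of the 8 genes was 2-fold apart in PM2i-iPSC, where 14.0% of all genes passed 2-fold above ES and 11.3% below. The log2 differences of PM2i-iPSC from ES were -0.02 for Ddx4, -0.14 for Mael, 0.02 for Stk31, 0.22 for Hormad1 and 0.30 for Dppa3. These lie within or at the spread between spots. Zscan4c, Sycp3 and Dazl were lower in PM2i-iPSC by more than that spread, with differences of -0.85, -0.82 and -0.78, and the other Dazl probe gave -0.80. The other Zscan4c probe lay at least 1.68-fold under its ES signal. The other Hormad1 probe, not well above background in PM2i-iPSC, lay at least 1.04-fold under its ES signal. PM2i-iPSC and ES shared a slide.

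In OM2i-iPSC, 1 of the 8 genes passed 2-fold above ES and 1 passed it below, against 20.6% and 13.6% of all genes. With scaling to the median these shares became 16.7% and 17.7%, with the same 2 genes called. The gene that was higher is Dppa3, at 3.61-fold, and the gene that was lower is Zscan4c, at 2.74-fold. Stk31 was 0.56 above ES, Mael 0.49 below and Dazl 0.65 below on the log2 scale, each beyond the spread between spots. Ddx4, Hormad1 and Sycp3 were within it, at -0.28, 0.25 and 0.04. The other Dazl probe was 4.00-fold lower in OM2i-iPSC than in ES, a wider gap than its first probe's 1.57-fold, and its call of 2-fold depends on which probe is read. The other Zscan4c probe was at least 1.69-fold lower, and the other Hormad1 probe was 1.37-fold higher.

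Between the preparations, Dppa3 was 2.93-fold lower in PM2i-iPSC than in OM2i-iPSC, the only one of the 8 genes 2-fold apart, against 16.9% of all genes below that mark and 12.4% above it. Sycp3 was 1.81-fold and Stk31 1.46-fold lower in PM2i-iPSC, and Zscan4c was 1.52-fold higher. The other Dazl probe was 2.30-fold higher in PM2i-iPSC, while the brighter one differed by 1.097-fold. The other Hormad1 probe, not well above background in PM2i-iPSC, was at least 1.43-fold lower there than in OM2i-iPSC. Of the trophoblast markers, 4 of 5 were well above background in both preparations, with summed levels of 13.65 in PM2i-iPSC, 14.78 in OM2i-iPSC and 19.05 in ES. Cdx2, which specifies trophoblast, read -3.25 in PM2i-iPSC, 0.41 in OM2i-iPSC and -3.05 in ES. Eomes, on the same list, went the other way, at -1.56 in PM2i-iPSC, -2.28 in OM2i-iPSC and -1.73 in ES. The log2 difference of PM2i-iPSC from OM2i-iPSC was 0.07 for Tfap2c. For Krt7 it was -0.13 on the brighter probe and -0.92 on the other. Elf5, another trophoblast regulator, was not well above background on any of the 4 arrays. The endoderm markers summed to 22.65 in PM2i-iPSC, 19.53 in OM2i-iPSC, 23.08 in ES and 23.97 in MEF. Foxa2, on that list, was not well above background on any array. Gata6 made up most of these sums and was saturated in PM2i-iPSC, OM2i-iPSC and ES, so the order of the sums there is not a measured one. On their brighter probes, Sox7 was 4.535-fold and Sox17 1.64-fold lower in PM2i-iPSC than in OM2i-iPSC, while Gata4 was 1.54-fold higher. The part of other cell types in the Dppa3 difference was not tested.

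**Figure D3:**
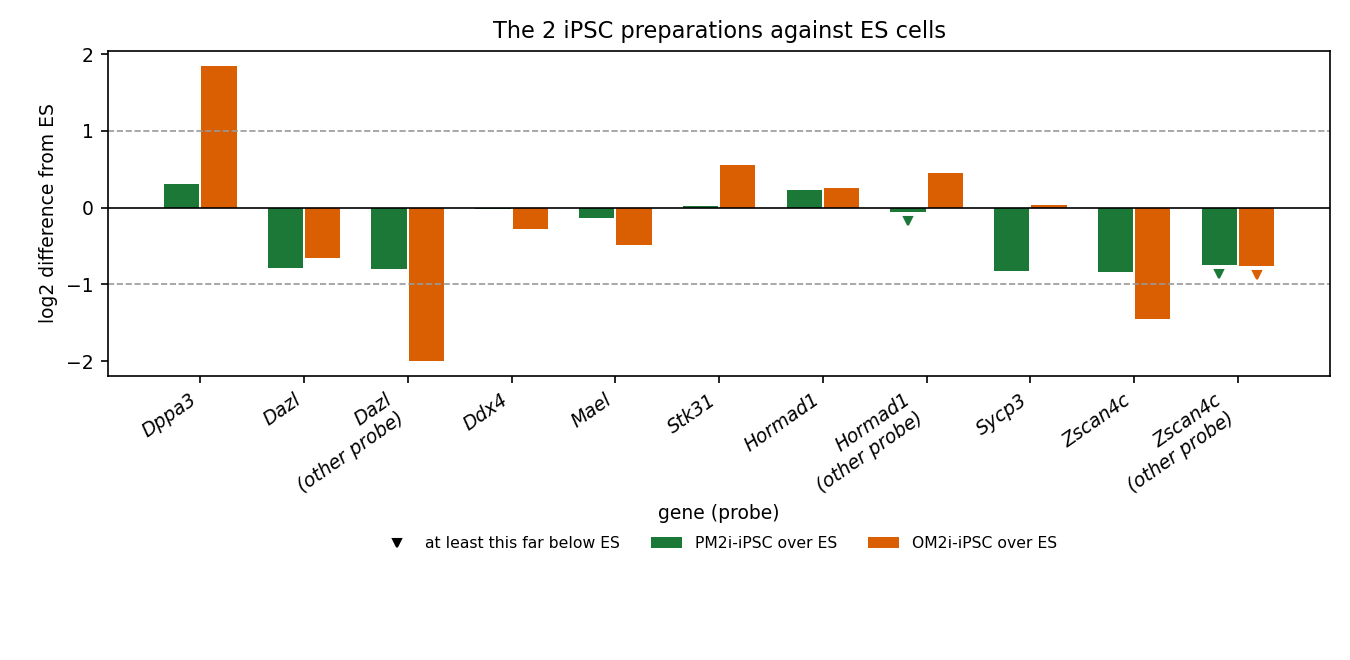
Log2 difference from ES of each probe in PM2i-iPSC and OM2i-iPSC. Triangles mark values that are at least this far below ES, and dashed lines mark 2-fold. The bars that cross 2-fold are those of OM2i-iPSC for Dppa3 (1.85), the other Dazl probe (-2.00) and the brighter Zscan4c probe (-1.45).

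The wider families of the 8 genes were followed in lists chosen by function, with the 8 genes left out. A gene not well above background in MEF entered only if it was well above background on the other array. Such a gene could not count as lower than MEF. On the array were 21 genes of the piRNA list, 29 of the meiosis list and 14 of the 2-cell-stage list. The primordial germ cell, oocyte and sperm lists had 13, 23 and 20 genes there. Of the piRNA pathway and germ granule list, 9 of 16 genes that gave a fold passed 2-fold above MEF and 2 below in PM2i-iPSC, with 12 of 18 above and 1 below in OM2i-iPSC, and 12 of 19 above and 1 below in ES. Their median log2 differences were 1.81, 3.09 and 2.01. Tex19.1, which protects germ cells from retrotransposons, read 0.91 in PM2i-iPSC, 0.43 in OM2i-iPSC and 0.91 in ES, against -8.83 in MEF. Tdrd12, a Tudor-domain piRNA factor, was at least 146-fold, 233-fold and 142-fold higher than MEF, and Rnf17, a germ granule protein, at least 102-fold, 127-fold and 104.5-fold. Mov10l1, the helicase that starts piRNA processing, was at least 44.0-fold, 52.8-fold and 48.3-fold higher on its brighter probe. Its other probe gave no fold over MEF in PM2i-iPSC or OM2i-iPSC, and a log2 difference of 3.30 in ES. On the other side stood Tdrd7, which also works in the lens, at 4.84-fold, 3.002-fold and 4.36-fold lower than MEF, and Tdrd5, 2.17-fold, 1.78-fold and 1.61-fold lower on its brighter probe. The other probe of Tdrd5 was higher than MEF by a log2 difference of 3.098 in PM2i-iPSC and 3.75 in OM2i-iPSC, so its direction depends on the probe. Against ES, on brighter or single probes, none of 19 genes of this list was 2-fold apart in PM2i-iPSC, and in OM2i-iPSC 4 were higher and 2 lower. Of all genes, 14.0% were higher and 11.3% lower in PM2i-iPSC, and 20.6% and 13.6% in OM2i-iPSC. The counts in OM2i-iPSC are near that background. On other probes, the log2 differences of PM2i-iPSC from ES were -1.20 for Tdrd12, 1.38 for Tdrd5 and 2.83 for Fkbp6. Dim spots were at the floor there.

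Of the 29 genes of the meiosis and synaptonemal complex list on the array, 24 gave a fold over MEF in each comparison. Spo11, Msh4 and Prdm9 were not well above background on any array. Of the 24, 22 passed 2-fold above MEF in PM2i-iPSC, 22 in OM2i-iPSC and 21 in ES, and 0 passed it below. The median log2 differences were 3.30, 4.01 and 3.66. Meioc, which keeps germ cells in the meiotic programme, was 100.2-fold, 98.8-fold and 68.05-fold higher than MEF. Sycp1, the transverse filament protein of the synaptonemal complex, read -0.65 in PM2i-iPSC, 0.16 in OM2i-iPSC and -1.03 in ES, against -6.62 in MEF. Sycp1 stood 1.30-fold above ES in PM2i-iPSC and 2.29-fold above it in OM2i-iPSC. Against ES, 4 of 25 genes of the list passed 2-fold above and 4 below in PM2i-iPSC, with 9 above and 3 below in OM2i-iPSC. Of all genes, 14.0% passed it above and 11.3% below in PM2i-iPSC, with 20.6% and 13.6% in OM2i-iPSC. The medians of the list's differences from ES were -0.13 and 0.54, where all genes had -0.04 and 0.04. With scaling to the median or by quantiles, 5 genes of the list were lower in OM2i-iPSC than in ES.

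The 2-cell-stage list was mixed against MEF, with 5 of 11 genes past 2-fold above MEF and 3 below in PM2i-iPSC, 6 above and 2 below in OM2i-iPSC, and 5 above and 2 below in ES. Tcstv1, a gene of the 2-cell embryo, read 1.35 in PM2i-iPSC, 0.30 in OM2i-iPSC and 2.23 in ES, against -5.44 in MEF. Usp17la, a deubiquitinase gene of the same list, read 0.35 in PM2i-iPSC, 0.28 in OM2i-iPSC and 1.198 in ES, against -2.45 in MEF. Like Zscan4c, both were highest in ES, and their log2 differences from ES were -0.87 and -0.85 in PM2i-iPSC and -1.93 and -0.92 in OM2i-iPSC, beside -0.85 and -1.45 for Zscan4c. The 2 other Tcstv1 probes had a median difference of -0.47 in PM2i-iPSC and -2.20 in OM2i-iPSC. Against ES, 2 of 12 genes of the list passed 2-fold above and 2 below in PM2i-iPSC, with 4 of 11 above and 3 below in OM2i-iPSC. The shares of all genes were 14.0% above and 11.3% below in PM2i-iPSC, and 20.6% and 13.6% in OM2i-iPSC. The 4 that were higher in OM2i-iPSC than in ES, named after their values were seen, are Cphx1 by a log2 difference of 2.16, Pramel7 by at least 2.68, Sp110 by 1.37 and Zfp352 by 1.05. The order of Zscan4c is therefore not that of the list as a whole. Zfp352, a zinc-finger gene, read -3.71 in PM2i-iPSC, -1.48 in OM2i-iPSC and -2.53 in ES, against -2.54 in MEF. Gata2, a blood and trophoblast regulator placed on this list, was 13.0-fold, 10.3-fold and 6.74-fold lower than MEF. Arg2, an arginase, was 1.52-fold lower than MEF in PM2i-iPSC and at least 5.66-fold and 8.17-fold lower in OM2i-iPSC and ES.

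Of the primordial germ cell regulators beside Dppa3, Dazl, Ddx4 and Mael, 10 of 12 passed 2-fold above MEF and 1 below in PM2i-iPSC, with 10 of 12 above and 1 below in OM2i-iPSC, and 9 of 11 above and 0 below in ES. Lin28a, an RNA-binding repressor of let-7 maturation, was at least 690-fold, 519-fold and 844-fold higher, and Dppa4, a chromatin-bound partner of Dppa2, at least 352-fold, 298-fold and 479-fold. Dppa2 was 116-fold, 135-fold and 120.5-fold higher, with a MEF spot well above background. These genes are also expressed by pluripotent cells outside the germline. Ifitm3, an interferon-induced membrane protein that marks early germ cells, was saturated in MEF and lay under that MEF signal by at least 2.11-fold in PM2i-iPSC and 15.4-fold in OM2i-iPSC. Prdm1, the repressor that starts germ cell specification, differed from MEF by -0.62 in PM2i-iPSC, 0.02 in OM2i-iPSC and -0.92 in ES, with no 2-fold difference.

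Of the oocyte genes that gave a fold, 9 of 12 in PM2i-iPSC, 9 of 12 in OM2i-iPSC and 9 of 13 in ES passed 2-fold above MEF, with 1, 1 and 2 past it below. Those that entered the comparisons numbered 15, 15 and 16, of 23 on the array. The brighter or single probes of Gdf9, Bmp15, Figla, Nobox, Nlrp5, Oosp1 and Oog1 were not well above background on any array. These genes are therefore not in the counts. Ooep, a subunit of the subcortical maternal complex, was at least 185-fold, 95.7-fold and 245.5-fold higher than MEF. Zp3, a protein of the egg coat, was at least 46.4-fold, 168-fold and 81.2-fold higher. Khdc3, another subunit of the same maternal complex, read -0.42 in PM2i-iPSC and -0.44 in ES, and was not well above background in OM2i-iPSC, at least 17.9-fold below ES. Lhx8, an oocyte transcription factor that is also used elsewhere in the embryo, was well above background in MEF alone and at least 14.98-fold, 15.1-fold and 21.8-fold lower in PM2i-iPSC, OM2i-iPSC and ES.

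Of the post-meiotic sperm genes, 7 of 14 passed 2-fold above MEF and 2 below in PM2i-iPSC, with 8 above and 2 below in OM2i-iPSC, and 8 above and 3 below in ES. Their median log2 differences were 1.05, 1.37 and 1.498. Prm3, a protamine-family gene, was 8.27-fold, 20.5-fold and 4.09-fold higher than MEF, and Prm1, a protamine that packs sperm DNA, was 3.21-fold, 4.67-fold and 2.96-fold lower.

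**Figure D4:**
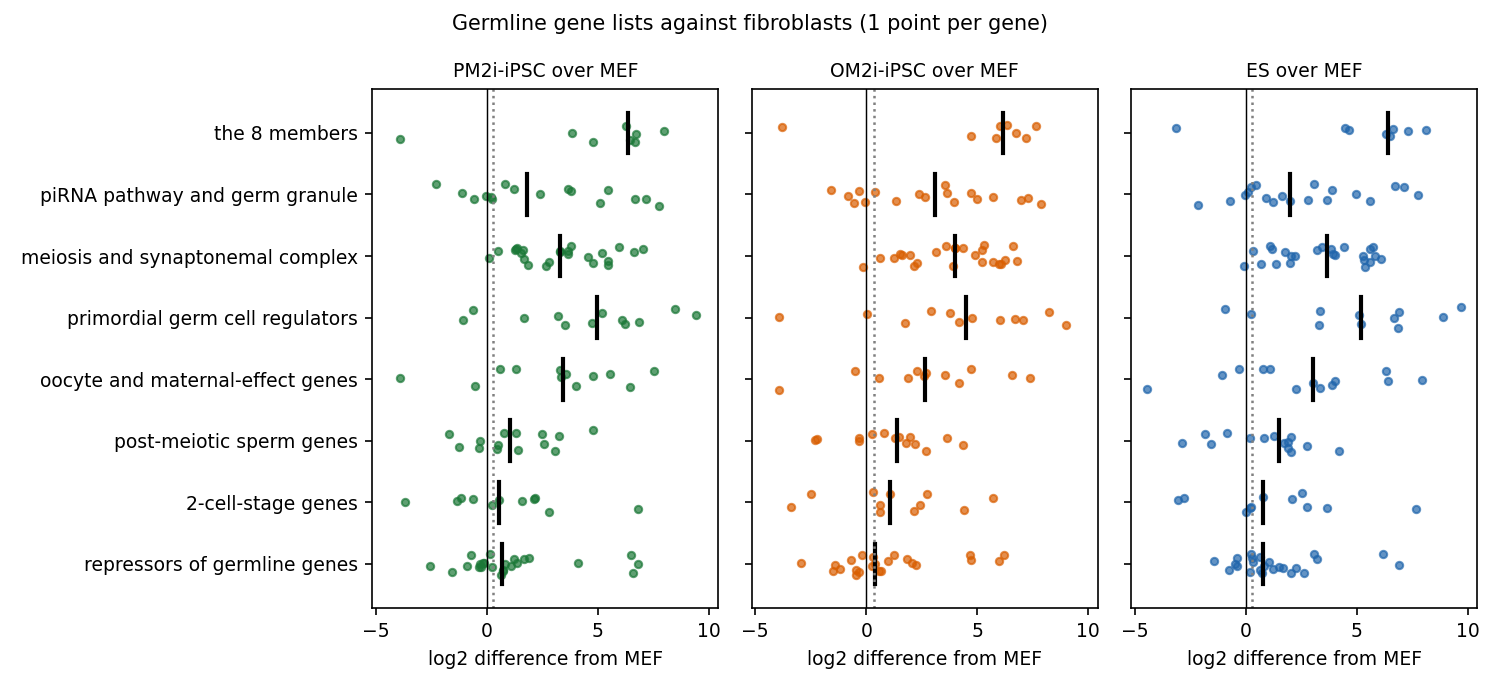
Log2 difference from MEF of each gene with a fold, by list, in PM2i-iPSC, OM2i-iPSC and ES; each list leaves out the 8 genes, which have a row of their own. Black bars are list medians and dotted lines the median of all genes (0.26, 0.37 and 0.27). In all 3 panels the median of the 8 genes lies furthest right, followed by that of the primordial germ cell regulators (4.94, 4.48 and 5.20), and the meiosis list has medians of 3.30, 4.01 and 3.66. The 8 genes and the lists were chosen with earlier results of these data known, so this order is a description only.

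Genes that hold the germline programme silent were measured beside it. Of the repressor list, 9 of 24 genes that gave a fold passed 2-fold above MEF and 2 below in PM2i-iPSC, 8 of 23 above and 4 below in OM2i-iPSC, and 11 of 24 above and 1 below in ES. Those that entered the comparisons numbered 26, 25 and 26. Beside the 34.0%, 36.7% and 33.8% of all genes above MEF, the shares of the list in PM2i-iPSC and OM2i-iPSC are near the background. With scaling to the median, 5, 8 and 3 genes were past 2-fold below, and the median log2 difference of the list in OM2i-iPSC was -0.35 in place of 0.39. E2f6, a DNA-binding subunit of the germline Polycomb complex, read 0.33 in PM2i-iPSC, 0.40 in OM2i-iPSC and 1.17 in ES, against 1.90 in MEF. These levels were 2.95-fold, 2.82-fold and 1.65-fold lower than MEF. Pcgf6, another subunit of that complex, had folds over MEF of 17.5, 26.65 and 9.15 on its brighter probe, and log2 differences of 0.67, -0.35 and 0.75 on its other probe. Dnmt3b, a DNA methyltransferase of the early embryo, was at least 113-fold, 72.75-fold and 73.3-fold higher than MEF. Its level differed from ES by 0.62 in PM2i-iPSC and -0.01 in OM2i-iPSC. Kdm5c, a histone demethylase, was at least 5.92-fold, 7.76-fold and 2.69-fold lower than MEF on its saturated brighter probe, while its other probe differed by 0.73, 0.21 and 0.15.

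The promoters of the 8 genes were read for the motifs of that complex. RefSeq sequences (build GRCm38.p6) of the 250 bases before the transcript start were matched for 7 of 8 genes, all but Dppa3. The E-box CACGTG, the site of Max and Mga, which reads the same on both strands, is present in 5 of 7, or 71.4%: Ddx4, Mael, Stk31, Hormad1 and Sycp3. It is present for 6.86% of 27025 genes with a window of the same length, and for 10.9% of the 7436 with at least 15 CG. In all these counts a gene holds a motif when the window of any of its listed starts does. CG were counted in the window of the first start. Sycp3, with 12 CG, and Zscan4c, with 3, are outside the class with at least 15 CG. The E2F6-type motif TCCCGC, searched on both strands, is present in 4 of 7 (Ddx4, Mael, Hormad1 and Sycp3), or 57.1%. The shares were 18.8% of all genes with a window and 44.7% of those with at least 15 CG. No E-box overlaps an E2F6-type motif in these windows. Dazl and Zscan4c hold neither, and no match says only that these letters are not in this window.

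Of the promoters with the E-box, 3 are shown. Hormad1 and Sycp3 hold the E-box in duplicate, and Zscan4c, of the 2-cell programme, is given for contrast. Capitals mark CACGTG and TCCCGC or its reverse complement, and each sequence ends at the base before the start of transcription. The windows are chr13:112652311-112652560 (minus strand) for Ddx4, chr3:95559427-95559676 (plus) for Hormad1, chr10:88459337-88459586 (plus) for Sycp3 and chr7:11005495-11005744 (plus) for Zscan4c, all in GRCm38.p6:
Ddx4: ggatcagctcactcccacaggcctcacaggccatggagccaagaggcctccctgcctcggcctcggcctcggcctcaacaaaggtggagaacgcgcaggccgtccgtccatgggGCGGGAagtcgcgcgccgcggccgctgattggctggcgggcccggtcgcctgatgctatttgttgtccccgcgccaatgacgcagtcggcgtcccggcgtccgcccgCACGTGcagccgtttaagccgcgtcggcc
Hormad1: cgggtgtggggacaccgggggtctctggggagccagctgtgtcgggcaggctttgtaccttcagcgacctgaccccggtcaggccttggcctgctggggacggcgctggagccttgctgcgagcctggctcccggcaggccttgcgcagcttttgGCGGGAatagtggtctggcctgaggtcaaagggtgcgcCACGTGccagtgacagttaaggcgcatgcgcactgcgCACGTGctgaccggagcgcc
Sycp3: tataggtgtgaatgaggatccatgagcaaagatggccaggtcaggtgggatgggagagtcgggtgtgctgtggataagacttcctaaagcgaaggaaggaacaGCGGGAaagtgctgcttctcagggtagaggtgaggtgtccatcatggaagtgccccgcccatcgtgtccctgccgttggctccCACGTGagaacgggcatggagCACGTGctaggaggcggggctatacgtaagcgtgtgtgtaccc
Zscan4c: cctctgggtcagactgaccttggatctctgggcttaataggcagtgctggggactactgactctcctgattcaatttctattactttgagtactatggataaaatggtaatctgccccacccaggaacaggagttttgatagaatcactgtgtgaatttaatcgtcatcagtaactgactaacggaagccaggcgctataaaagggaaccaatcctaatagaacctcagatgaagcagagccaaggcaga

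The E-box begins 29 bases before the start in Ddx4, 223 in Mael, 55 in Stk31, 57 and 20 in Hormad1, and 64 and 43 in Sycp3. A further start listed for Stk31 has it 120 bases before. The windows hold 31 CG in Ddx4, 21 in Stk31, 20 in Dazl, 19 in Hormad1, 18 in Mael, 12 in Sycp3 and 3 in Zscan4c, against a median of 6 over all promoters. The E-box is present for 6 of 18 genes of the piRNA list (33.3%) and for 7 of 26 of the meiosis list (26.9%), both without the 8 genes. It is in 0 of 18 promoters of the 2-cell-stage list and 0 of 17 of the sperm list. A match is a description of the sequence, and binding was not measured here.

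**Figure D5:**
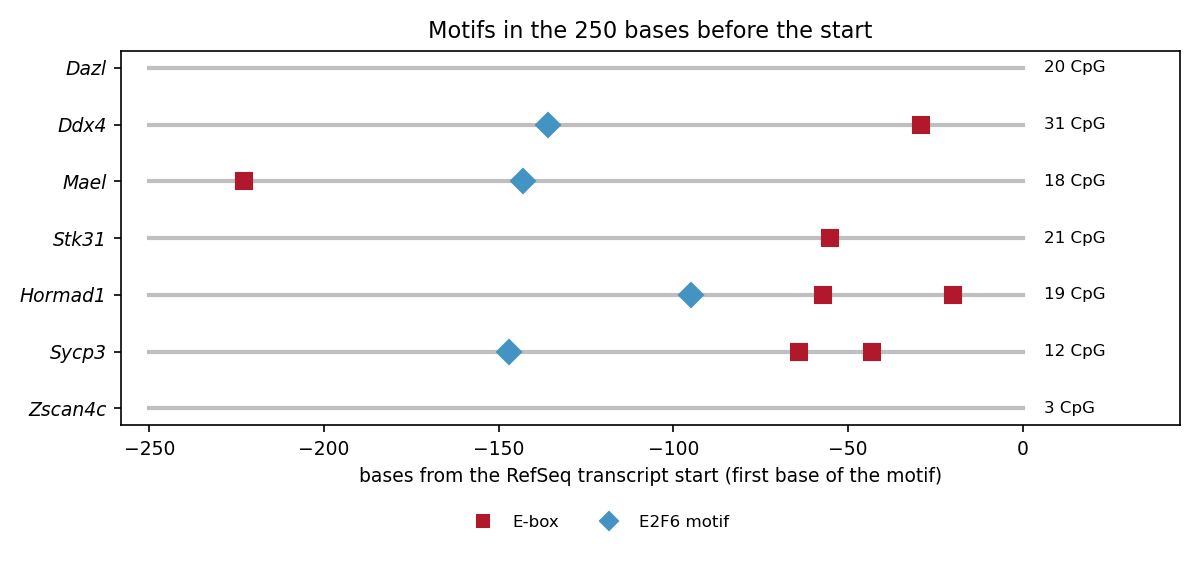
Position of the E-box (squares) and the E2F6 motif (diamonds) in the 250 bases before the first RefSeq transcript start of 7 of the 8 genes, with the number of CG at the right. Of the 5 promoters with an E-box, 4 hold one within 64 bases of the start, and Dazl and Zscan4c hold neither motif.

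Genes whose 4 levels followed each of the 8 most closely were found among 16429 genes, by the root mean square of the log2 differences after each gene was centred on its own mean over the 4 arrays. For Ddx4 they were Olfr361 (0.062) and Chga (0.0697), and for Mael Slc9b2 (0.125) and Fam25c (0.226). For Stk31 they were Tex13b (0.161) and Vil1 (0.21), and for Hormad1 Amhr2 (0.0751) and Rhd (0.0822). For Sycp3 they were Calcoco2 (0.103) and Harbi1 (0.119), and for Dppa3 Prss42 (0.0458) and Nudt11 (0.109). For Zscan4c, Alpk3 (0.173) was among them. The brighter Dazl probe was followed by Tram1l1 (0.0667) and Arl8a (0.0735). From 32 genes (for Stk31) to 364 genes (for Dazl) lay within 0.5 of a member, so with 4 arrays such likeness is common. Measured signals were used here, not raised to the floor. For Mael, Stk31, Hormad1 and Dppa3 the MEF level that was matched was therefore not well above background.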

How the data were processed

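Spot intensity was deposited by the authors as scanner files of 4 one-colour Agilent arrays (Cy3, total RNA by Trizol, per the labels' protocols). Per the file headers, Agilent Feature Extraction 10.7.3.1 was used for PM2i-iPSC, OM2i-iPSC and ES and 9.5.3.1 for MEF. The deposited series table holds the same intensity, rounded and neither centred nor logged. Here levels are log2 of processed signal over the array's 75th percentile, averaged per probe, without control or outlier-flagged spots. Probes were named through the RefSeq table, 22951 by accession, 6659 by symbol, 3109 by an older symbol, and 8455 kept the file's name. A gene is its brightest probe and entered a comparison when well above background on at least 1 array. Saturated or dim sides give bounds, or no fold in some cases. List counts are out of the genes that gave a fold, while shares of all genes are out of those that entered. At least 2-fold counts as apart. Coordinates are those of the MEF file (build mm7, while the other headers name mm8). The members and lists were chosen with earlier results of these data known. Named genes are the members, up to 4 genes per list with the widest difference from MEF and up to 2 opposite ones, and each member's 2 nearest genes, of which 1 is not reported here. Tools were Python 3.11.15, pandas 2.3.3, R 4.3.3 and limma 3.58.1 (normexp). The comparison code was tested on simulated arrays. The 4 Affymetrix arrays were not used. Alternatives were scaling, normexp with offset 50 (on median signals, since 3 files hold no mean signal), the deposited table, probe choice, the background filter, bounds and a 4-fold threshold.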

Additional observations from a re-analysis of the deposited data

Results flagged for a closer look

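None of the 8 genes differed from ES in opposite directions in the 2 preparations by more than the spread between spots. Among the list genes named by the rule, 5 did, and none of these differences was tested. Meiob, a meiotic recombination factor, differed from ES by a log2 difference of 1.18 in PM2i-iPSC and -0.94 in OM2i-iPSC. Zfp352, of the 2-cell-stage list, differed by -1.18 in PM2i-iPSC and 1.05 in OM2i-iPSC. Zp3, of the egg coat, differed by -0.81 in PM2i-iPSC and 1.05 in OM2i-iPSC. Its other probe differed by -1.12 and 0.58. Tekt1, a protein of sperm tails and cilia, differed by 0.48 in PM2i-iPSC and -0.58 in OM2i-iPSC. Its other probe differed by -1.87 and -3.08. Tnp1, a transition protein of sperm chromatin, differed by 0.68 in PM2i-iPSC and -0.45 in OM2i-iPSC.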

How the results depend on the processing

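No paired analysis was possible because each population has 1 array, and for the same reason no replicate could be left out. Of 134 recomputed counts of members, 118 stayed within 1.5 times the reported count. The exceptions came from 4 settings. With the median over detected probes, 0 members were lower than MEF in PM2i-iPSC, OM2i-iPSC or ES, 1 was lower than ES in PM2i-iPSC, 2 were lower than ES in OM2i-iPSC, and 2 were lower in PM2i-iPSC than in OM2i-iPSC. With the other probe where a gene has several, 0 were lower than MEF on any of the 3 arrays and 1 was higher in PM2i-iPSC than in OM2i-iPSC. With probes well above background on both arrays, 3 members were higher than MEF in PM2i-iPSC, 3 in OM2i-iPSC and 3 in ES, since 4 of the other 5 members have no MEF signal well above background and Dazl, which has one, is lower. At 4-fold, 0 members were higher and 0 lower than ES in OM2i-iPSC, and 0 were lower in PM2i-iPSC than in OM2i-iPSC.

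Of 416 recomputed differences of single members, 314 moved by less than the spread between spots, and 6 reversed, all for Dazl over MEF. With the median over detected probes Dazl gave 2.11 in PM2i-iPSC, 1.58 in OM2i-iPSC and 2.91 in ES, and with its other probe 5.96, 4.76 and 6.76. Scaling to the median moved the median of all genes by -0.62, -0.74 and -0.55 in PM2i-iPSC, OM2i-iPSC and ES over MEF, and the directions of the members over MEF were kept. All 8 members stayed nearer to ES than to MEF in both preparations under the 7 settings that enter this position. With the other Zscan4c probe and its dim spots at their measured signals, that gene sat at 45.8% in PM2i-iPSC and 43.8% in OM2i-iPSC, nearer to MEF. Of 1008 recomputed counts and medians of the lists, 188 moved. Signals near background limit the folds over MEF, which for Mael in ES ranged from 6.01 to 8.99 on the log2 scale.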
